A study of Homo sapiens with 24 samples.

Results

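The 30 genes described here encode the enzymes that build cholesterol and fatty acids, the sterol regulatory element binding proteins (SREBPs) that switch those enzymes on, and a few proteins that control SREBP or move sterols. They were taken by name from a table of read counts for 59385 gene symbols, over both cell lines and all 4 constructs. The rule names genes and uses no measured value, but the list was chosen with earlier results of these data known. All 30 were found, and all 30 passed the filter on low counts in every comparison below. By role they comprise 4 sterol regulators, 7 genes of the mevalonate arm, 11 genes of the sterol arm, 4 genes of fatty acid synthesis and 4 genes of desaturation and elongation. RNA was sequenced from A549 and H1299, both of them established human cell lines of non-small cell lung carcinoma. Each line had been stably transduced with lentivirus carrying FLAG-tagged SIRT6 in its wild-type form (WT), its K3R form or its K3Q form, or with the FLAG-tagged empty vector (Ctr). SIRT6 is an NAD-dependent deacylase of chromatin, and arginine or glutamine in place of lysine is commonly used to block or to imitate acetylation. All groups thus share the viral transduction and the cells' own SIRT6, and the promoter that drives the transgene is not given in the sources used here. Each of the 8 groups has 3 libraries, written 1-1 (biological replicate 1, batch 1), 1-2 (biological replicate 1, batch 2) and 2-2 (biological replicate 2, batch 2), and values below are listed in that order. The labels do not say whether 1-1 and 1-2 came from separate cultures, so p-values measure only the spread between these libraries, which may be technical.

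Cholesterol and fatty acid synthesis share one control system. SREBP proteins are made as membrane precursors that SCAP escorts out of the endoplasmic reticulum when sterols are low, while INSIG proteins hold the complex back when sterols are plentiful. The released fragment of SREBP-2, from SREBF2, mainly drives the mevalonate and sterol genes, and that of SREBP-1, from SREBF1, mainly drives fatty acid genes. In mouse liver, Sirt6 has been described as acting with Foxo3 at the Srebf2 gene.

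Promoter windows of RefSeq (build GRCh38.p14), from 250 bases before the start to 50 bases after it, matched 26 of the 30 genes; FASN, FDFT1, SQLE and ACAT2 were not among them. The motifs sought on both strands were the sterol regulatory element TCACNCCAC, the E-box TCACGTGA, the NF-Y box CCAAT and the GC box GGGCGG. The sterol regulatory element was present in 1 of the 26 windows (3.85%), that of SREBF2, against 1.13% of all 35116 windows in the table. The E-box was also present in 1 window (3.85%), that of INSIG1, against 0.98% of all windows. The NF-Y box was present in 18 windows (69.2%), against 34.6% of all, and the GC box in 23 windows (88.5%), against 45% of all. Below are the windows of 4 genes with large differences between the lines and of SREBF2, the one that holds the sterol element. They were chosen after the values were seen and are given for reference, 5′ to 3′ on the gene's strand, with capitals marking any of the 4 motifs. They lie at chr11:61816154-61816453 on the plus strand (FADS2), chr11:61816954-61817253 on the minus strand (FADS1), chr17:41918902-41919201 on the minus strand (ACLY), chr21:46228725-46229024 on the minus strand (LSS) and chr22:41832855-41833154 on the plus strand (SREBF2).
FADS2: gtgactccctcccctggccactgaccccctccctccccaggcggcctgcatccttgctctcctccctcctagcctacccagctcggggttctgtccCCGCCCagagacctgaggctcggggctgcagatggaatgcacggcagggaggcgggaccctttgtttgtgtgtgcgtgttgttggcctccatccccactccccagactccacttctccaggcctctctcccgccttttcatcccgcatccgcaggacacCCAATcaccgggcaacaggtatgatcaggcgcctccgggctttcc
FADS1: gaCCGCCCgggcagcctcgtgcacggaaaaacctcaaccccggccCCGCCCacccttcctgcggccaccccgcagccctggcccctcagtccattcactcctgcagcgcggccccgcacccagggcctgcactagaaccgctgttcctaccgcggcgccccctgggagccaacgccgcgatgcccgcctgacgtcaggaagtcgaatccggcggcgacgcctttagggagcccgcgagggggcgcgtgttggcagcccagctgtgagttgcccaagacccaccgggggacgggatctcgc
ACLY: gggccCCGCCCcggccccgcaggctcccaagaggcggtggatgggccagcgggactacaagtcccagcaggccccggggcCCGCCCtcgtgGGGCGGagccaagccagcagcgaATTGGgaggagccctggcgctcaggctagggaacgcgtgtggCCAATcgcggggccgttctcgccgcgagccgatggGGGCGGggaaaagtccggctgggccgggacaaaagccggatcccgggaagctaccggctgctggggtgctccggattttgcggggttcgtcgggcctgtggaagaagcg
LSS: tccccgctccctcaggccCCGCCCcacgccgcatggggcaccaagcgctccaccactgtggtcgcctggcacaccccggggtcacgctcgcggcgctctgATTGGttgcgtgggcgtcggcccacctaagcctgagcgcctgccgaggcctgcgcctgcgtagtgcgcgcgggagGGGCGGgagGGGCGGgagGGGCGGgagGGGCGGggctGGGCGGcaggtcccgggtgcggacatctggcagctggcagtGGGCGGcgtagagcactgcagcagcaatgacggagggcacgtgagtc
SREBF2: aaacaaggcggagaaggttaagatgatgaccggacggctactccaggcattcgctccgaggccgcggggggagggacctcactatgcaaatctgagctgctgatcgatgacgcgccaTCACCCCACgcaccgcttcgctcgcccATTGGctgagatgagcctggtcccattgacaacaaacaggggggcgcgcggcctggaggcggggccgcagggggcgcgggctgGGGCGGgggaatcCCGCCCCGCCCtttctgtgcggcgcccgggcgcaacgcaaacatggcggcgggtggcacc
In the SREBF2 window the sterol element reads TCACCCCAC and begins at position -133 from the start. Its nearest other motif is an inverted NF-Y box at -106, and its 3 GC boxes lie at -23, -10 and -5, the last pair sharing a base. The LSS window held 7 GC boxes and an NF-Y box, ACLY 4 GC boxes and 2 NF-Y boxes, FADS1 2 GC boxes, and FADS2 1 GC box and 1 NF-Y box. A match is a match of letters, and binding was not measured here.

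Levels are given as CPM, the count scaled to a library of 1000000 reads. SIRT6 averaged 2352 ± 809.6, 2412 ± 990.4 and 1673 ± 113 CPM in A549 with WT, K3R and K3Q, against 27.4 ± 5.03 CPM in Ctr (SD, n = 3 each). In H1299 it averaged 3742 ± 2200.0, 4103 ± 1514 and 12915 ± 2066 CPM with WT, K3R and K3Q, against 37.3 ± 5.21 CPM in Ctr (SD, n = 3 each), so K3Q carried the most in this line. Libraries held 16434492 to 19412274 counts in A549 and 14943189 to 22856407 in H1299, and the 30 genes had between 106 counts (HSD17B7) and 49230 counts (SCD) in a library. Several libraries stood apart. In A549 the 2-2 libraries of WT, K3R and Ctr lay at 51.3 to 54.0 on a first principal component holding 37.5% of the variance, where the K3Q 2-2 library lay at -13.1. The 1-2 and 2-2 libraries of A549 K3Q differed by a chi-square of 2.49 per degree of freedom over genes, where the 23 other within-group pairs had 14.4 to 63.6. They still differed by more than counting error and are kept as 2 libraries. The epithelial markers EPCAM, CDH1, KRT8, KRT18 and KRT19 summed to 4649 to 12116 CPM in A549 and to 619 to 1063 CPM in H1299. The mesenchymal markers VIM, ZEB1, ZEB2, CDH2 and SPARC summed to 406 to 675 CPM in A549 and to 943 to 1390 CPM in H1299. Most of this sum was VIM, at 366 to 589 CPM in A549 and 828 to 1287 CPM in H1299. ZEB2 was also higher in H1299, while ZEB1, CDH2 and SPARC overlapped between the lines. SPARC reached 19.5 CPM in A549 and 3.80 CPM in H1299. SFTPB, SFTPC and NKX2-1 of an alveolar list were under 1 CPM in every library of both lines, as were PTPRC, CD3E and HBB of blood. FOXA2 of the alveolar list was at 31.9 to 59.9 CPM in A549 and at 0 to 0.165 CPM in H1299.

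Levels were compared between genes per kilobase of merged exons. This length joins the exons of all annotated transcripts of a gene, so the ranks are approximate. On this scale SCD, the desaturase that makes oleate, had the highest level in both lines. Its medians over 12 libraries were 222.8 CPM per kb in A549 and 184.6 CPM per kb in H1299. In A549 SCD was followed by ACLY (184.2), FASN (64.5), SREBF1 (55.4) and FADS2 (44.7 CPM per kb). The order in H1299 was FASN (86.4), ACLY (49.6), SREBF1 (38.5) and FDFT1 (33.5 CPM per kb) after SCD. FADS2, the delta-6 desaturase of polyunsaturated fatty acids, was rank 5 of 30 in A549 and rank 30 in H1299, at 1.78 CPM per kb. The lowest member in A549 was HSD17B7, a reductase of late sterol synthesis, at 2.23 CPM per kb. Reads in overlapping exons may be miscounted. For genes on opposite strands this holds where the counting ignored strand, a setting not given in the sources used here. For genes on the same strand it holds with either setting. ACAT2 exons share 26.5% of their bases with SOD2 and 33.9% with SOD2-OT1 on the opposite strand, FDPS 18.6% with RUSC1-AS1, and CYP51A1 79.4% with AC000120.2 on the same strand. FADS1 and FADS2 share 490 exon bases on opposite strands. FDPS has 8 named pseudogenes, CYP51A1 has 3, HSD17B7 has 2, and SCD and FADS2 have 1 each, so levels of these genes are less certain.

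FADS1, FADS2 and ACLY, which make polyunsaturated fatty acids and acetyl-CoA, were higher in A549 than in H1299, and several genes of sterol synthesis were lower in A549. With the empty vector, 16 of the 30 genes differed between A549 and H1299 by edgeR's quasi-likelihood test with Benjamini-Hochberg adjustment under 0.05, 7 higher and 9 lower in A549. Across all 18102 genes tested the share was 65.5%, so the count itself does not set the 30 genes apart. Their median log2 difference was -0.01, against -0.03 over all genes tested.

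FADS2 had 532, 533 and 273 CPM in A549 Ctr, against 19.4, 16.0 and 18.2 CPM in H1299 Ctr. Every A549 library lay far above every H1299 library, also over all constructs, where the 12 A549 libraries ran from 273.2 to 551 CPM (median 493) and the 12 H1299 libraries from 14.9 to 26.3 CPM (median 19.6). The log2 difference in Ctr was 4.63 ± 0.24 (SE), a 24.7-fold higher level, with an adjusted p of 1.9e-12 by edgeR's quasi-likelihood test. FADS1, the delta-5 desaturase that acts after FADS2 on the way to arachidonate, had 427, 411 and 372 CPM in A549 Ctr, against 145, 121 and 139 CPM in H1299 Ctr. Here too the groups were apart, by a log2 difference of 1.58 ± 0.11 (edgeR adjusted p = 2.0e-10). ACLY, which splits citrate to yield cytosolic acetyl-CoA for both pathways, had 850.3, 1027 and 1024 CPM in A549 Ctr, against 246, 251 and 239 CPM in H1299 Ctr. Its lowest A549 library of 12, at 715 CPM, was above the highest H1299 library, at 288 CPM, and the log2 difference in Ctr was 1.97 ± 0.09 (edgeR adjusted p = 1.7e-13). ACACA, the acetyl-CoA carboxylase that commits acetyl-CoA to fatty acids, was also higher in A549, by 0.83 ± 0.14 log2 (edgeR adjusted p = 4.0e-05). FASN, the synthase that follows it, did not pass, with a log2 difference of -0.31 ± 0.23 (edgeR adjusted p = 0.254), nor did SCD at -0.16 ± 0.31 (edgeR adjusted p = 0.655), ELOVL6 at -0.14 ± 0.13 and ACSS2 at -0.05 ± 0.12.

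In the mevalonate arm, ACAT2, the cytosolic thiolase that joins 2 acetyl-CoA, had 43.2, 44.6 and 27.4 CPM in A549 Ctr, against 114, 107 and 69.7 CPM in H1299 Ctr. All A549 libraries were lower, and the log2 difference was -1.33 ± 0.16 (edgeR adjusted p = 4.9e-07). MVD, the last of the mevalonate steps before isoprenoid units, was lower in A549 with a log2 difference of -0.97 ± 0.17, as was FDPS, which joins those units to farnesyl diphosphate, at -0.52 ± 0.10, while the kinase PMVK was higher by 0.52 ± 0.14. The arm thus did not move one way: 1 of its 7 genes was higher, 3 were lower, and HMGCS1, MVK and IDI1 did not pass. In the sterol arm, LSS, which closes the first sterol ring system, had 66.0, 82.6 and 52.5 CPM in A549 Ctr, against 157, 134 and 145 CPM in H1299 Ctr. SC5D, a late desaturase of the sterol ring, had 16.8, 14.9 and 16.5 CPM in A549 Ctr, against 32.1, 37.1 and 26.5 CPM in H1299 Ctr. Neither gene's ranges overlapped between the lines, and the log2 differences were -1.12 ± 0.16 (edgeR adjusted p = 3.1e-06) and -0.99 ± 0.14 (edgeR adjusted p = 2.6e-06). FDFT1, which commits farnesyl units to sterols, and SQLE, the epoxidase after it, were lower in A549, with log2 differences of -0.36 ± 0.11 and -0.38 ± 0.10, and MSMO1, a sterol demethylation oxidase, was higher by 0.53 ± 0.16. The calls of FDFT1 without the 2-2 library of A549 Ctr and of MSMO1 without the 1-1 library of H1299 Ctr were lost (edgeR adjusted p = 0.0915 and 0.0536), with log2 differences of -0.24 and 0.43. The other 6 genes of the arm did not pass, CYP51A1 and NSDHL lying nearest to no difference at 0.04 ± 0.15 and 0.02 ± 0.12.

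Among the regulators, SREBF1 had 435, 489.8 and 231 CPM in A549 Ctr, against 233, 204 and 292 CPM in H1299 Ctr. The groups overlapped through the low A549 2-2 library, and the log2 difference was 0.65 ± 0.25 (edgeR adjusted p = 0.0312). Without biological replicate 2, in libraries that share a biological replicate number, it was 1.08 (edgeR adjusted p = 2.9e-07). With biological replicate 1 summed it was 0.43 (edgeR adjusted p = 0.289), and without the 1-2 library of A549 Ctr alone it was 0.36 (edgeR adjusted p = 0.242). The call was also lost without the 1-1 library of A549 Ctr (edgeR adjusted p = 0.0769) and without the 1-1 or 1-2 library of H1299 Ctr (0.140 and 0.0993). INSIG1, the sterol-sensing brake on SREBP and itself an SREBP target, had 60.4, 73.1 and 27.3 CPM in A549 Ctr, against 102, 86.7 and 77.0 CPM in H1299 Ctr. All 3 A549 libraries lay under all 3 H1299 libraries, with a log2 difference of -0.73 ± 0.25 (edgeR adjusted p = 0.0141), a call lost without the 1-1 or 2-2 library of A549 Ctr (0.0609 and 0.115). The difference was -0.41 without that 2-2 library and -1.15 without the 1-2 library of A549 Ctr. STARD4, a carrier of sterol between membranes, was lower in A549, with a log2 difference of -0.99 ± 0.15. SREBF2 had 181, 167 and 133 CPM in A549 Ctr, against 203, 173 and 189 CPM in H1299 Ctr, and the overlapping groups did not differ at the threshold (log2 difference -0.24 ± 0.11, edgeR adjusted p = 0.0626).

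**Figure D1:**
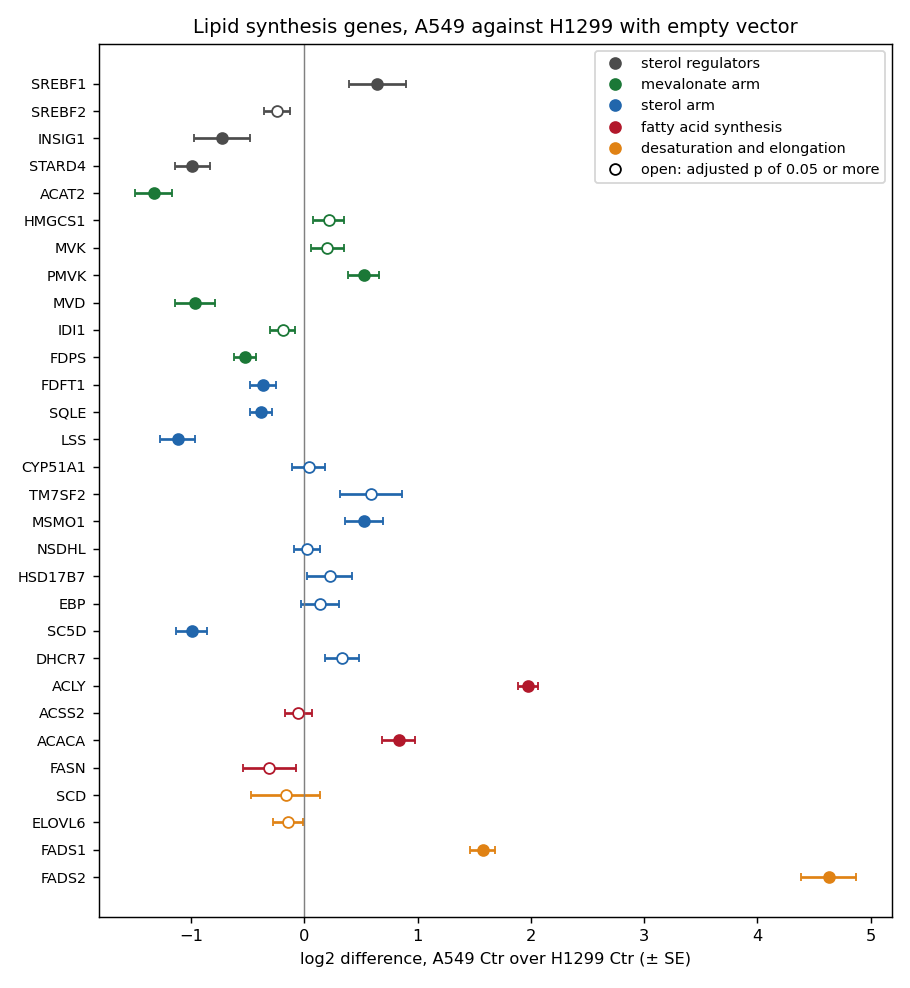
Log2 difference of each of the 30 genes between A549 Ctr and H1299 Ctr, with its standard error on the x axis and genes down the y axis, coloured by role. Filled points passed the edgeR test; FADS2 stands farthest right at 4.63, and ACAT2 farthest left at -1.33.

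Over all constructs, 8 of the 30 genes had no overlap between the 12 A549 and the 12 H1299 libraries, against 40.9% of all genes tested. ACLY, FADS1 and FADS2 were higher in every A549 library, and STARD4, ACAT2, MVD, LSS and SC5D were lower in every A549 library. The epithelial and mesenchymal marker sums given above also differed between the lines, and their part in these differences was not tested. In bulk RNA, fewer cells with a transcript and less of it per cell cannot be told apart.

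**Figure D2:**
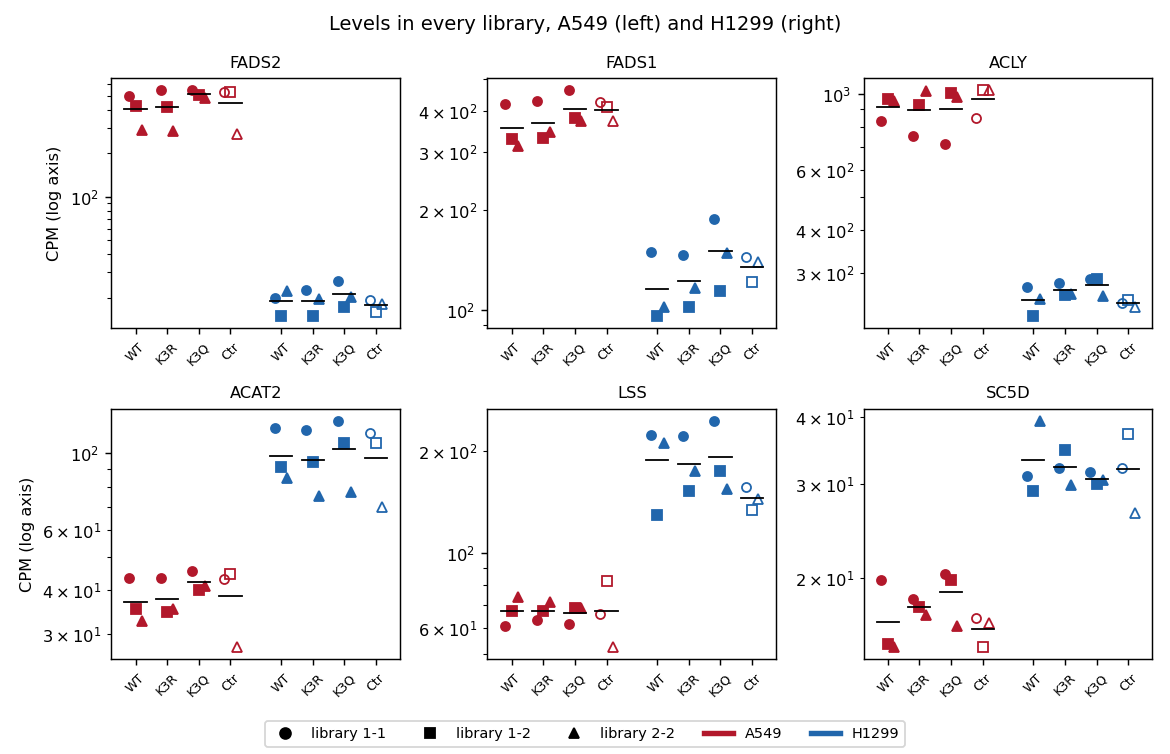
CPM on a log axis in each of the 24 libraries for the 6 genes that differed most between lines, by construct, with A549 in red at the left of each panel and H1299 in blue at the right; bars are means of 3 libraries and Ctr points are open. The lines are separate in all 6 panels.

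Genes of the same pathways that are not among the 30 were taken from 4 lists, and their counts below are to be read against the 65.5% of all genes that differed between the lines. Of 11 genes of SREBP processing and remaining sterol synthesis, 6 were higher and 2 lower in A549, with TMEM97, a sterol-responsive membrane protein, among the higher ones (1.94 ± 0.18 log2). Of 16 further genes of fatty acid and lipid synthesis, 9 were higher and 4 lower, and those with the lowest p were ACACB, the mitochondrial acetyl-CoA carboxylase (2.06 ± 0.15), and FADS3, a desaturase next to FADS1 and FADS2 (1.51 ± 0.16). Of 11 genes of the sterol-activated LXR receptors and sterol efflux, 5 were higher and 3 lower. ABCG1, a sterol exporter and LXR target, had 9.27, 6.03 and 7.07 CPM in A549 Ctr, against 0.0855, 0 and 0.107 CPM in H1299 Ctr, where it was barely detected, and LIPA, the lysosomal lipase that frees cholesterol, was higher in A549 by 1.19 ± 0.12 log2. Of 10 genes of fatty acid oxidation, 3 were higher and 2 lower, with ACADVL higher by 0.82 ± 0.08 and ACADM lower at -0.86 ± 0.12 log2, both of them acyl-CoA dehydrogenases.

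Within A549, none of the SIRT6 forms changed any of the 30 genes at the threshold. By edgeR's quasi-likelihood test, 0 of 30 passed for WT against Ctr (0.105% of 16120 genes tested passed), 0 for K3R against Ctr (0.118%) and 0 for K3Q against Ctr (0.0248%). Likewise 0 passed for K3R against WT (0% of genes), K3Q against WT (0.00620%) and K3Q against K3R (0.00620%). At an unadjusted p under 0.05 the counts were 1, 0, 1, 0, 3 and 1, and DESeq2 also called 0 in each. The median log2 change was -0.01 with WT, 0.04 with K3R and 0.13 with K3Q against Ctr, where all genes tested had medians within 0.01 of 0. The 3 comparisons share the Ctr libraries.

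SREBF1 had 449, 483 and 282 CPM with WT, 483, 461 and 293 with K3R and 451, 434 and 439.9 with K3Q, against 435, 489.8 and 231 CPM in Ctr. SREBF2 had 170.2, 152 and 166 CPM with WT, 185, 150.0 and 188 with K3R and 215, 162 and 163 with K3Q, against 181, 167 and 133 CPM in Ctr. INSIG1 had 62.9, 46.0 and 35.2 CPM with WT, 58.5, 49.9 and 32.4 with K3R and 54.1, 48.7 and 47.5 with K3Q, against 60.4, 73.1 and 27.3 CPM in Ctr. All groups overlapped for these 3 regulators. For SREBF1 and INSIG1 the 2-2 library was the lowest of its construct with WT, K3R and Ctr. With WT, however, INSIG1 differed more between 1-1 and 1-2 than between 1-2 and 2-2. FDPS had the lowest p of the mevalonate arm, with 89.6, 75.9 and 82.7 CPM with K3Q, 77.2, 62.5 and 53.1 CPM with WT and 78.3, 64.8 and 57.1 CPM in Ctr. The K3Q and Ctr groups overlapped, and the log2 difference of K3Q from Ctr was 0.31 ± 0.10 (edgeR adjusted p = 0.376). SCD had 1218, 896 and 401 CPM with WT, 1312, 941 and 443 with K3R and 1477, 1193 and 1204 with K3Q, against 1284, 1196 and 524 CPM in Ctr. Its log2 difference of K3Q from WT was 0.68 ± 0.37 (edgeR adjusted p = 0.829), and the low values were those of the 2-2 libraries of WT, K3R and Ctr.

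An approximate 95% interval of the log2 change against Ctr shows what 3 libraries can resolve here. It uses a normal quantile and is somewhat too narrow for so few libraries. For ACLY, among the tightest, the interval ran from -0.28 to 0.04 with K3Q, and for SCD from -0.32 to 1.11. A p above the threshold therefore does not show that SCD was the same in these groups. None of the 48 further pathway genes passed in any of the 6 comparisons in A549, where at most 0.118% of all genes did. ACSL4, a ligase for polyunsaturated fatty acids, had a log2 change of -0.29 ± 0.09 with K3Q against Ctr (edgeR adjusted p = 0.374).

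**Figure D3:**
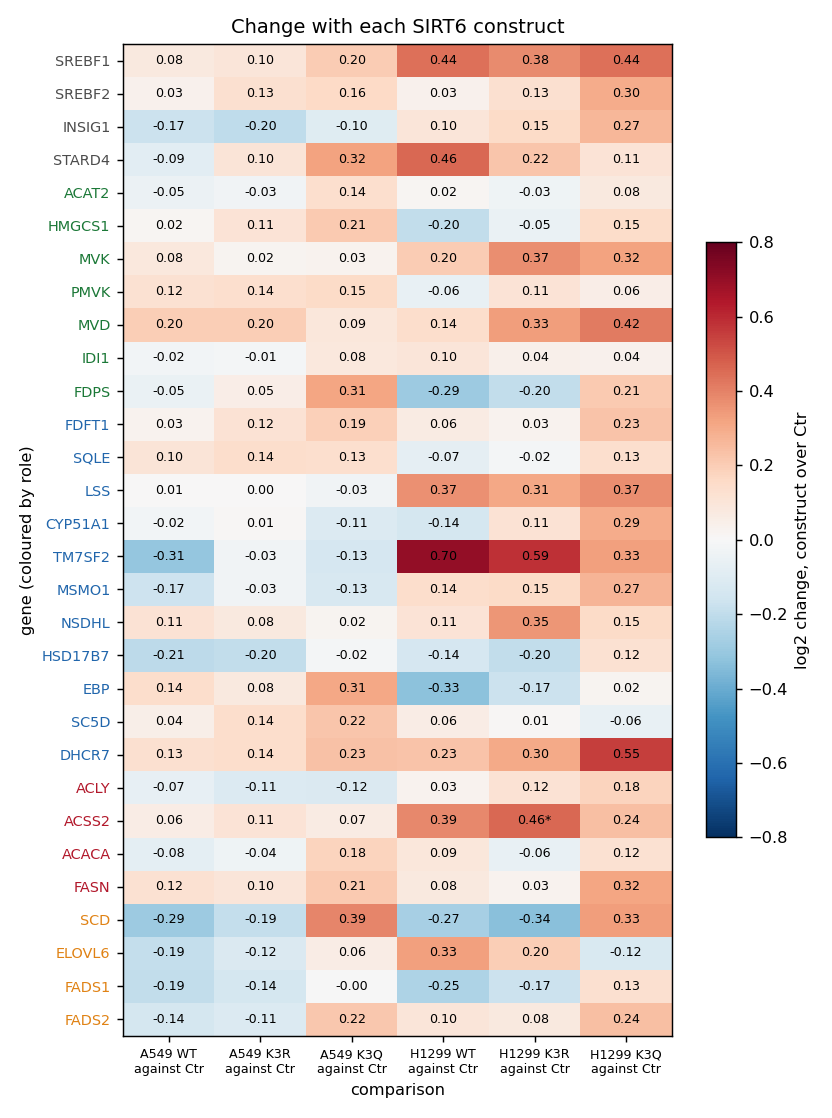
Log2 change of each of the 30 genes (rows, gene names coloured grey for regulators, green for the mevalonate arm, blue for the sterol arm, red for fatty acid synthesis and orange for desaturation and elongation) with each construct over Ctr (columns, A549 left of H1299). An asterisk marks an edgeR adjusted p under 0.05; only ACSS2 with K3R in H1299 has one, at 0.46.

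In H1299, ACSS2 narrowly passed as higher with K3R, and a few genes lay near the threshold with the other forms. ACSS2, which makes acetyl-CoA from acetate, had 42.8, 32.3 and 35.3 CPM with WT, 44.1, 35.5 and 37.2 with K3R and 41.3, 33.4 and 26.0 with K3Q, against 32.8, 27.6 and 24.3 CPM in Ctr. The 3 K3R libraries all lay above the 3 Ctr libraries, and the log2 change was 0.46 ± 0.12 (edgeR adjusted p = 0.0484). It was the 1 member called for K3R against Ctr (3.33%), a share near the 3.25% of 16262 genes. The count thus does not set the 30 genes apart. The call is close to the threshold: leaving out any one of the 6 libraries gave edgeR adjusted p-values of 0.0829 to 0.181, with the log2 change between 0.42 and 0.51. It was also lost with no batch term, with biological replicate 1 summed and in batch 2 alone (edgeR adjusted p = 0.228, 0.39 and 0.353). With WT the log2 change of ACSS2 was 0.39 ± 0.12 (edgeR adjusted p = 0.0853), and the difference of K3R from WT was 0.07 ± 0.12 (edgeR adjusted p = 0.999), so a difference between these forms was not shown.

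For WT against Ctr 0 of 30 genes passed (4.05% of all genes tested), and for K3Q against Ctr 0 passed (0.0615%). At an unadjusted p under 0.05 the counts were 7 and 8, and DESeq2 called 2 and 1. Libraries of the same number correlated weakly to moderately in H1299. A fit that also blocked on this number called 2 for WT (9.75% of all genes), 2 for K3R (8.56%) and 1 for K3Q (0.836%) against Ctr. STARD4 had 62.7, 34.8 and 43.1 CPM with WT, 53.7, 34.3 and 32.2 with K3R and 42.2, 29.04 and 37.3 with K3Q, against 37.9, 32.8 and 29.7 CPM in Ctr. Every WT library exceeded the Ctr library of its number, while the 2 groups overlapped. With WT its log2 change was 0.46 ± 0.14 (edgeR adjusted p = 0.0854, with the block 0.0321). ACSS2 was the other gene called for WT with the block (edgeR adjusted p = 0.0347). For K3R the block added NSDHL, a sterol dehydrogenase of C4 demethylation, which had 57.4, 46.2 and 48.5 CPM with WT, 76.6, 51.8 and 53.9 with K3R and 62.0, 51.2 and 44.5 with K3Q, against 51.2, 47.8 and 41.8 CPM in Ctr. The K3R and Ctr libraries did not overlap, and the log2 change was 0.35 ± 0.11 (edgeR adjusted p = 0.0999, with the block 0.0419).

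With K3Q most of the 30 genes had a positive log2 change, while no single gene passed. Of the 30 genes, 28 had a positive log2 change against Ctr and 2 a negative one, with a median of 0.22, where all genes tested had a median of -0.01 and 7936 of 16262 were positive. With WT and with K3R 21 of 30 were positive, with medians of 0.08 and 0.11, and these comparisons use the same Ctr libraries. DHCR7, the reductase before cholesterol, had 150.0, 94.8 and 121 CPM with WT, 174, 105 and 115 with K3R and 201, 147 and 117 with K3Q, against 123, 96.4 and 93.4 CPM in Ctr. Each K3Q library exceeded the Ctr library of its number, but the lowest K3Q library was below the highest Ctr library. Its log2 change of 0.55 ± 0.12 had an edgeR adjusted p of 0.152, and of 0.0352 with the block. A fit without biological replicate 2 called 12 of 30 for K3Q against Ctr, all higher (12.2% of all genes). Among them were SREBF1, SREBF2, MVD, LSS, DHCR7, FASN and SCD. The K3Q library left out was the lowest of K3Q for SREBF1, SCD and TM7SF2. The remaining 2 libraries a group share a biological replicate number and may be technical repeats. These 12 calls therefore do not show a rise across biological replicates, and the fit with all libraries called none.

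SREBF1 in H1299 had 444, 218 and 351 CPM with WT, 377, 265 and 326 with K3R and 400.0, 341 and 268 with K3Q, against 233, 204 and 292 CPM in Ctr. Its log2 change was 0.44 with WT, 0.38 with K3R and 0.44 with K3Q, and none passed (edgeR adjusted p = 0.281, 0.355 and 0.511). SREBF2 in H1299 had 229.7, 159 and 193 CPM with WT, 242, 188 and 192 with K3R and 266, 228 and 205 with K3Q, against 203, 173 and 189 CPM in Ctr. The 3 K3Q libraries lay above the 3 Ctr libraries, the highest Ctr library being just under the lowest K3Q library, and the log2 change was 0.30 ± 0.10 (edgeR adjusted p = 0.376). INSIG1 in H1299 had 132, 61.5 and 96.7 CPM with WT, 126, 82.3 and 92.0 with K3R and 139, 106 and 80.2 with K3Q, against 102, 86.7 and 77.0 CPM in Ctr, and all groups overlapped. TM7SF2, a sterol reductase, had the largest log2 changes of the 30 with WT and K3R, at 0.70 ± 0.29 and 0.59 ± 0.29, and neither passed (edgeR adjusted p = 0.213 and 0.311).

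Of the 48 further pathway genes, 1 passed for K3R against Ctr in H1299 (3.25% of all genes tested). With WT (4.05% of all genes) and with K3Q (0.0615%) none passed. The counts thus do not set these genes apart. ABCA1, the exporter that loads cholesterol onto apolipoprotein and an LXR target, had 8.61, 3.71 and 4.34 CPM with WT, 5.02, 5.09 and 3.06 with K3R and 5.92, 5.43 and 5.91 with K3Q, against 11.5, 9.17 and 8.34 CPM in Ctr. All K3R and all K3Q libraries lay below all Ctr libraries. With K3R the log2 change of ABCA1 was -1.14 ± 0.23 (edgeR adjusted p = 0.0205). With WT and K3Q its log2 changes of -0.83 ± 0.23 and -0.73 ± 0.23 did not pass (edgeR adjusted p = 0.0635 and 0.35). A fall particular to K3R was thus not shown.

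Between the SIRT6 forms in H1299, FDPS was called higher with K3Q than with WT. FDPS had 102, 67.3 and 68.4 CPM with WT, 122, 67.5 and 69.6 with K3R and 153, 98.9 and 88.7 with K3Q, against 127, 77.2 and 87.8 CPM in Ctr. Each K3Q library was above the WT and the K3R library of its number, while the pooled ranges overlapped, the 1-1 library being the highest of each construct. The log2 difference of K3Q from WT was 0.50 ± 0.10 (edgeR adjusted p = 0.0164). FDPS was the 1 of 30 genes called in this comparison, a share near the 3.46% of all genes. The count thus does not set the 30 genes apart. The call was lost with no batch term, with biological replicate 1 summed and in batch 2 alone (edgeR adjusted p = 0.360, 0.512 and 0.323). Leaving out the 1-1 or 1-2 library of K3Q or of WT gave edgeR adjusted p-values of 0.0555 to 0.106, and leaving out a 2-2 library 0.0199 and 0.0468. Against Ctr the log2 change of FDPS was -0.29 ± 0.10 with WT and 0.21 ± 0.10 with K3Q, neither of them called, so the gap between the forms was made up of a value below Ctr with WT and one above it with K3Q.

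With the replicate block, K3Q against WT had 4 of 30 genes called, a share near the 12% of all genes. The count thus does not set the 30 genes apart. The block added SCD and FADS1, higher with K3Q, and ELOVL6, lower with K3Q. SCD had 1898, 580.4 and 655 CPM with WT, 1452, 751 and 612 with K3R and 2278, 1209 and 961 with K3Q, against 1360.2, 911 and 1019 CPM in Ctr. Its 1-1 library was the highest of each construct, and K3Q exceeded WT at every number, by 0.60 ± 0.19 log2 (edgeR adjusted p = 0.0926, with the block 0.0332). ELOVL6, which lengthens palmitate to stearate, had 46.9, 44.7 and 49.0 CPM with WT, 41.1, 40.6 and 47.4 with K3R and 31.9, 33.8 and 37.5 with K3Q, against 43.8, 36.9 and 31.4 CPM in Ctr. All K3Q libraries lay below all WT libraries, with a log2 difference of -0.45 ± 0.13 (edgeR adjusted p = 0.0769, with the block 0.0249), the reverse of SCD. FADS1 in H1299 had 149.6, 95.4 and 102 CPM with WT, 147, 102 and 116 with K3R and 189, 114 and 148 with K3Q, against 145, 121 and 139 CPM in Ctr. Its K3Q libraries exceeded the WT libraries of the same number, by 0.38 ± 0.13 log2 (edgeR adjusted p = 0.117, with the block 0.0207). Without biological replicate 2, K3Q against WT had 14 of 30 genes called, 12 higher and 2 lower (24.2% of all genes). That fit too rests on libraries that share a biological replicate number.

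K3Q against K3R had 0 of 30 genes called (0.449% of all genes), and 2 with the replicate block (3.23%). These were FDPS, at 0.41 ± 0.10 log2 (edgeR adjusted p = 0.086, with the block 0.0197), and SCD, at 0.67 ± 0.18 (edgeR adjusted p = 0.143, with the block 0.0437). K3R against WT had 0 called (0% of all genes). At an unadjusted p under 0.05, 4 members passed for K3Q against K3R and 1 for K3R against WT, and DESeq2 called 2 and 0. H1299 with K3Q also held the most SIRT6 RNA, so the form of SIRT6 and its amount cannot be told apart in this line.

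**Figure D4:**
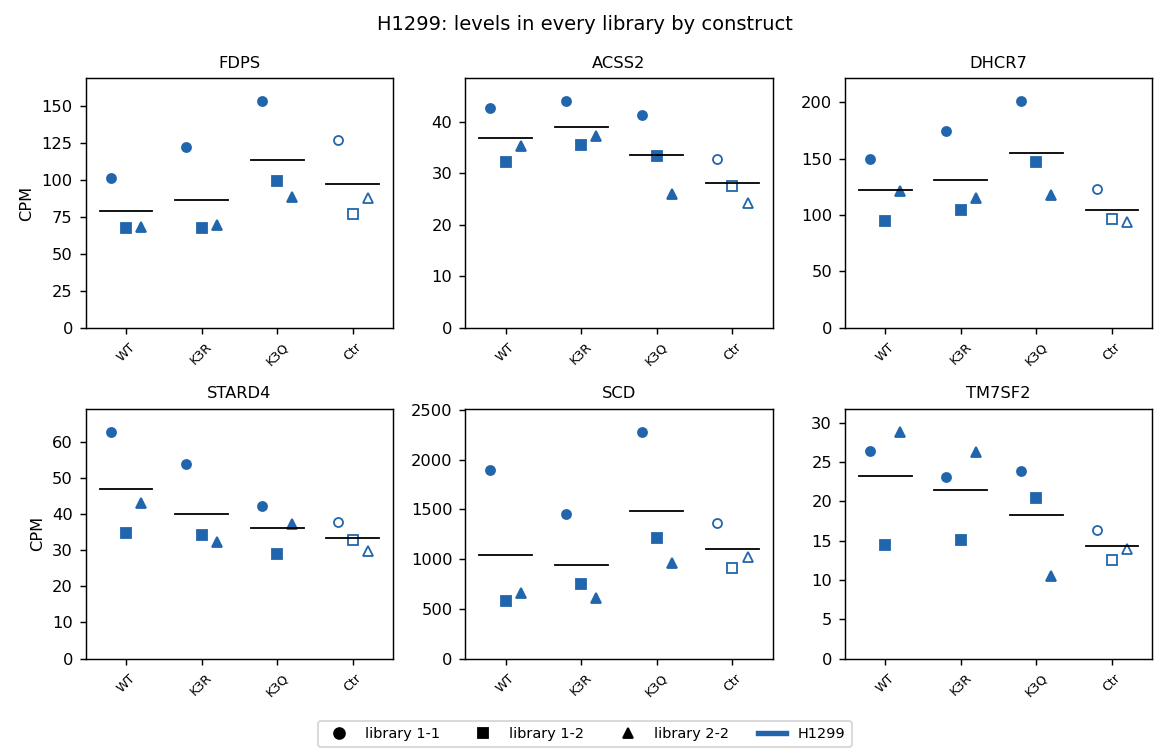
CPM in each H1299 library by construct for FDPS, ACSS2, DHCR7, STARD4, SCD and TM7SF2, on axes that start at 0, with symbols for the library number and bars for means of 3; Ctr points are open. ACSS2 with K3R lies wholly above Ctr, while the 1-1 libraries of SCD reach 1360 to 2278 CPM in every construct.

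A direct test of whether a SIRT6 form acted differently in the lines called none of the 30 genes. The difference of the log2 change in A549 minus that in H1299 passed for 0 of 30 with WT (0.735% of 18102 genes), 0 with K3R (0.475%) and 0 with K3Q (0.0166%) by edgeR's quasi-likelihood test. At an unadjusted p under 0.05 the counts were 3, 1 and 1, and DESeq2 called 0 in each. The lowest p with WT was that of ELOVL6, at -0.52 ± 0.18 log2 (edgeR adjusted p = 0.271), from a change of -0.19 ± 0.12 in A549 and 0.33 ± 0.13 in H1299. TM7SF2 had the widest gap with WT, at -1.01 ± 0.39 (edgeR adjusted p = 0.365). Thus the ACSS2 change seen with K3R in H1299 was not shown to be particular to that line (difference -0.36 ± 0.17, edgeR adjusted p = 0.608).

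In batch 2, SCD, FASN and SREBF1 had lower levels in biological replicate 2 of A549 than in replicate 1 with WT, K3R and Ctr, and nearly equal levels with K3Q. SCD had 401, 443, 1204 and 524 CPM in the 2-2 libraries of WT, K3R, K3Q and Ctr, against 896, 941, 1193 and 1196 CPM in the 1-2 libraries. FASN had 559, 578, 877 and 413 CPM in the 2-2 libraries of WT, K3R, K3Q and Ctr, against 924, 871, 886 and 939.8 CPM in the 1-2 libraries, and SREBF1 had 282, 293, 439.9 and 231 CPM in the 2-2 libraries of WT, K3R, K3Q and Ctr, against 483, 461, 434 and 489.8 CPM in the 1-2 libraries. These 3 genes were chosen after their values were seen. In batch 1, FASN had 603, 604, 506 and 565 CPM in the 1-1 libraries of WT, K3R, K3Q and Ctr, also of biological replicate 1. Low FASN was thus not confined to replicate 2. For SCD and SREBF1 the 1-1 libraries, given above, exceeded the 2-2 libraries of WT, K3R and Ctr. Over all 4 constructs, 0 of 30 genes passed for replicate 2 against replicate 1 (0.0248% of 16101 genes), with SCD at -0.87 ± 0.18 log2 (edgeR adjusted p = 0.0574). At an unadjusted p under 0.05 the count was 10, and DESeq2 called 8. With the closely similar K3Q pair left out, 11 of 30 were called, 9 lower and 2 higher in replicate 2, a share near the 34.8% of all 15882 genes. They are named after their values were seen. The log2 difference was -1.15 ± 0.06 for SCD, -0.84 ± 0.08 for SREBF1, -0.84 ± 0.10 for FASN, -0.81 ± 0.16 for INSIG1 and -0.69 ± 0.09 for FADS2. ACACA (-0.46 ± 0.07), DHCR7 (-0.44 ± 0.09), STARD4 (-0.41 ± 0.13) and ELOVL6 (-0.27 ± 0.09) were lower by smaller amounts. TM7SF2 and MSMO1, both of the sterol arm, were higher by 0.55 ± 0.14 and 0.50 ± 0.10. The lower genes came from several roles: of the 4 genes of fatty acid synthesis ACLY (0.03 ± 0.06) and ACSS2 (0.13 ± 0.11) did not pass, and of the 4 genes of desaturation and elongation FADS1 (-0.06 ± 0.07) did not. SREBF2 (0.04 ± 0.11, edgeR adjusted p = 0.807), FDFT1 (-0.01 ± 0.10) and SQLE (-0.08 ± 0.10) did not pass either.

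The summed level of 10 proliferation genes, MKI67 and TOP2A among them, moved with the same libraries, at 1753, 1728 and 1182 CPM in the 2-2 libraries of WT, K3R and Ctr, against 2709, 2720 and 2711 CPM in their 1-2 libraries. In K3Q it was 2630 CPM in the 2-2 library, against 2600 CPM in the 1-2 library. Its part in the lipid gene levels was not tested. In H1299, replicate 2 against replicate 1 in batch 2 called 2 of 30 genes (11.8% of all genes). ACAT2 had 84.6, 75.1, 77.0 and 69.7 CPM in the 2-2 libraries of WT, K3R, K3Q and Ctr, against 91.0, 94.5, 107 and 107 CPM in the 1-2 libraries, and FADS2 had 22.4, 19.7, 20.4 and 18.2 CPM in the 2-2 libraries of WT, K3R, K3Q and Ctr, against 14.9, 14.9, 17.3 and 16.0 CPM in the 1-2 libraries. ACAT2 was lower in replicate 2, with a log2 difference of -0.35 ± 0.10 (edgeR adjusted p = 0.0335) and FADS2 rose by 0.39 ± 0.12 (edgeR adjusted p = 0.0479), in 4 of 4 constructs each. Without any one library of K3R or Ctr neither gene passed (edgeR adjusted p = 0.0809 to 0.206), and without either library of WT FADS2 did not (0.229 and 0.233). Without K3Q, 6 were called there, 5 higher and 1 lower (21.2% of genes), SREBF1 among them at 0.54 ± 0.08, the opposite sign to A549; the difference between the lines was not tested.

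**Figure D5:**
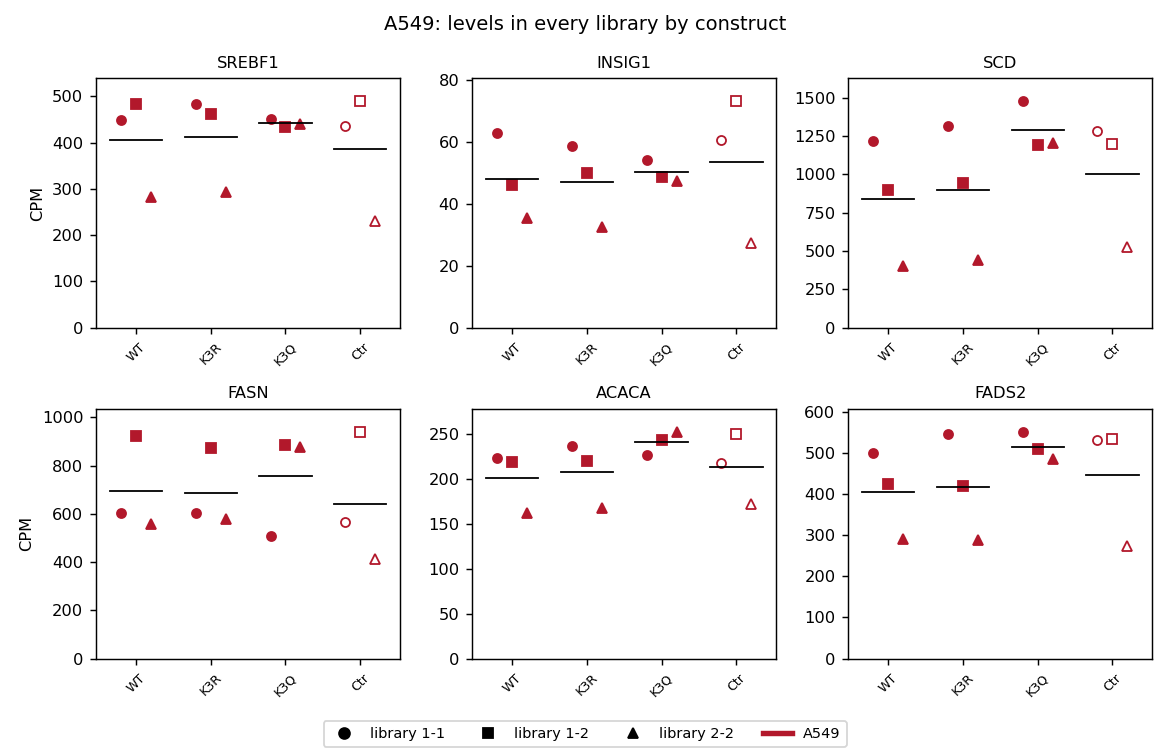
CPM in each A549 library by construct for SREBF1, INSIG1, SCD, FASN, ACACA and FADS2, on axes that start at 0, with symbols for the library number and bars for means of 3; Ctr points are open. The 2-2 libraries (triangles) of WT, K3R and Ctr lie lowest of their construct in all 6 panels, and the K3Q triangle stays beside its 1-2 square.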

How the data were processed

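RNA was sequenced from 24 libraries, 3 for each of 4 constructs in 2 cell lines. The authors deposited 1 table of raw read counts per gene symbol. Per the submitters' processing notes, FastQC, cutadapt, STAR and featureCounts were used with build GRCh38. Tool versions, the strand setting and the annotation used for counting are not given here. Per the labels' protocols, libraries were made from total RNA with a SMARTer mRNA-seq kit. No gene symbol was blank and 0 columns were left unused.

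From these counts, CPM were computed with TMM library sizes in edgeR 4.0.16 (limma 3.58.1, R 4.3.3). Genes with low counts were removed with filterByExpr (minimum count 10, minimum total 15), fitted separately for each line, or over both for line comparisons. The quasi-likelihood test was run with batch as a term, on all genes passing the filter, with Benjamini-Hochberg adjustment over them and a threshold of 0.05. A gene is called higher or lower where its adjusted p is under 0.05. Errors of log2 changes are standard errors. Scripts were tested on simulated counts. Alternatives were DESeq2 1.42.0, RLE scaling, no low-count filter, no batch term, a replicate block, left-out libraries and pooled or restricted batches. Exon lengths and overlaps came from GENCODE 29, and promoters from RefSeq.

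In H1299 the deviations of same-numbered libraries from their group means correlated at 0.135 to 0.553 over 18 pairs, which includes the difference between batches. Within batch 2, the differences of 2-2 from 1-2 correlated at 0.111 to 0.526 over 6 pairs, and at 0.111 to 0.354 in those with K3Q. Pairing by number in H1299 is thus a reading from the data, and the replicate block is an alternative fit. In A549 the same-number correlations were 0.0566 to 0.746. Within batch 2 the A549 pairs without K3Q correlated at 0.55 to 0.664. The A549 K3Q differences followed no other construct, at -0.00922 to 0.00473, so the numbers were not taken as pairs.

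The 30 members and the other gene lists were chosen with earlier results of these data known. Values by library, in the line and groups a comparison is about, are given for SREBF1, SREBF2 and INSIG1, for members called between constructs with or without the replicate block, for the member with the lowest p against Ctr in each role, for the 6 called members with the largest difference between lines, and for up to 3 called between biological replicates of a line. Members outside these rules, among them SCD, FASN and SREBF1 between the A549 replicates, were named after their values were seen. For the other lists, the genes with the lowest p are named, except a few genes that are not reported here. The precision of a level is limited by 3 libraries a group, and single-gene intervals cover the spread between libraries.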

Additional observations from a re-analysis of the deposited data

How the results depend on the processing

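Counts of the 30 genes called stayed within 1.5 times of the reported count in 227 recomputations and moved further in 58. Of the recomputed single-gene log2 changes, 414 stayed on the same side of the threshold, 43 passed where the reported test had not, 48 missed where it had passed, and 0 reversed in sign. Medians over the 30 genes moved in 1 case, K3Q against K3R in H1299 without biological replicate 2, to 0.20.

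With the replicate block the calls in H1299 were 2 for WT, 2 for K3R and 1 for K3Q against Ctr, and 4 and 2 for K3Q set against WT and K3R. The block moved no count in A549. With DESeq2 the same comparisons gave 2, 2, 1, 3 and 2, and biological replicate 2 against 1 gave 8 in A549 and 1 in H1299. With no low-count filter they gave 3, 3, 2, 3 and 1, K3Q in A549 gave 1 against each of WT, K3R and Ctr, the difference between lines with WT gave 1, and replicate 2 against 1 in A549 gave 9. Without biological replicate 2 the H1299 counts were 3, 2, 12, 14 and 3, and the difference between lines with K3Q gave 3. Those fits use only libraries that share a biological replicate number. With no batch term, with biological replicate 1 summed, and in batch 2 alone, K3R against Ctr and K3Q against WT in H1299 gave 0. All 24 libraries in 1 fit gave 1 for K3Q against K3R in H1299, RLE scaling gave 1 for replicate 2 against 1 in H1299, and leaving K3Q out gave 11 in A549 and 6 in H1299. Where these differ, the cause was not tested.

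Leaving out single libraries gave 0 to 0 for K3R against Ctr and 0 to 2 for K3Q against WT in H1299, 0 to 11 and 0 to 6 for the replicates of A549 and H1299, and 14 to 18 between the lines. The count of 11 came without either K3Q library of batch 2 in A549. The lowest count of any of the 30 genes in a library was 106, for HSD17B7.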
